A study of Mus musculus with 26 samples.

Results

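The IgLON family of cell adhesion molecules was followed as 4 genes, Lsamp, Opcml, Ntm and Negr1, which are 4 of the 27502 rows of the counts table. The rows were found by the Ensembl identifier of each symbol. RNA was sequenced from whole brain of mice aged 6 to 12 weeks in 26 libraries that fall into 7 groups. All mice were of B6.FVB stock. Neuron nuclei came from carriers of Tg(Snap25-EGfp/Rpl10a)JD362Htz, astrocyte nuclei from carriers of Tg(Aldh1L1-EGfp/Rpl10a)JD130Htz and oligodendrocyte nuclei from carriers of Tg(Cnp-EGfp/Rpl10a)JD368Htz. In every line the transgene, a fusion of green fluorescent protein with the ribosomal protein Rpl10a, is driven by regulatory sequence of the gene named in the line, so a sorted group is the set of cells in which that driver is active. No animal was treated. Each line gave 4 libraries of sorted nuclei and 4 of presort nuclei, the unsorted mixture, with 2 females and 2 males each. The cytoplasm group held 1 male of the Aldh1L1 line and 1 female of the Cnp line. The design text describes each replicate as 1 mouse and the presort RNA as taken from each of the sorted mice, but the labels do not say which presort library belongs to which sorted library. The family was chosen by measured values: the differences of Opcml between sorted neurons and astrocytes and of Lsamp between sorted astrocytes and oligodendrocytes were already known when it was selected, so all levels in sorted nuclei are described here without a test.

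IgLON proteins are small glycoproteins held on the outside of the cell membrane by a glycosylphosphatidylinositol anchor. They carry immunoglobulin domains and bind themselves and each other between neighbouring cells. In brain they are known from work on neurite outgrowth, axon targeting and synapse formation. Lsamp encodes the limbic system-associated membrane protein, which was found on neurons of limbic areas. Opcml encodes the opioid-binding protein and cell adhesion molecule-like protein, and is also studied as a tumour suppressor. Ntm encodes neurotrimin, and Negr1 encodes neuronal growth regulator 1, whose human locus is associated with body mass index. Iglon5, the remaining member of the family in mouse, gave its name to a human disease with antibodies against its product. It was set beside the 4 genes for comparison.

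All 4 genes are very long. In GENCODE M21 (GRCm38), Lsamp (ENSMUSG00000061080) lies on chromosome 16 from 39984361 to 42181679 on the forward strand and spans 2197.3 kb. Opcml (ENSMUSG00000062257) lies on chromosome 9 from 27790775 to 28925410 on the forward strand and spans 1134.6 kb. Ntm (ENSMUSG00000059974) lies on chromosome 9 from 28994750 to 29963141 on the reverse strand and spans 968.4 kb. Negr1 (ENSMUSG00000040037) lies on chromosome 3 from 156561794 to 157316445 on the forward strand and spans 754.7 kb. The median span of the 22028 annotated protein-coding genes was 17.3 kb. At least 99.51% of these genes were shorter than Negr1, the shortest of the 4, and 99.973% were shorter than Lsamp. Iglon5 (ENSMUSG00000013367), on chromosome 7 from 43472904 to 43490075, spans only 17.2 kb. Opcml and Ntm are neighbours whose 3′ ends face each other, 69339 bases apart, with 0 annotated genes lying wholly between them. Exons covered from 0.783% (Lsamp) to 1.39% (Negr1) of the spans, and whether intronic reads were counted is not given in the sources used here. An annotated antisense gene overlaps each of the 4 genes (Gm28750 for Lsamp, Gm48091 for Opcml, Gm15520 for Ntm and Gm15577 for Negr1). Gm48091, from 28794296 to 28954347, runs past the end of Opcml into the gap before Ntm. None of these antisense genes had a row of its own in the counts table, and without a stated strand setting their reads cannot be told apart from those of the sense gene.

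The start regions are shown because the 4 genes differ in where their RNA was high, and because they differ in their content of the dinucleotide CpG. Each sequence runs from 250 bases before to 50 bases after a transcription start, from RefSeq (GRCm38.p6), 5′ to 3′ on the strand of the gene, with every CpG in capitals. The windows are chr16:39984114-39984413 (forward strand) for Lsamp, chr9:27791049-27791348 (forward strand) for Opcml, chr9:29412636-29412935 (reverse strand) for Ntm and chr3:156561544-156561843 (forward strand) for Negr1.
Lsamp: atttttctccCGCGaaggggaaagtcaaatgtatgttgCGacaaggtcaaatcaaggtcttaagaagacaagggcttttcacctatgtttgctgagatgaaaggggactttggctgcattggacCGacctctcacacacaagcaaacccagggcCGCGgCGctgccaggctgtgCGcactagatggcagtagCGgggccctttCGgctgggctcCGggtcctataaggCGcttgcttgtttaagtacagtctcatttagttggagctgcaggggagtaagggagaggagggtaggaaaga
Opcml: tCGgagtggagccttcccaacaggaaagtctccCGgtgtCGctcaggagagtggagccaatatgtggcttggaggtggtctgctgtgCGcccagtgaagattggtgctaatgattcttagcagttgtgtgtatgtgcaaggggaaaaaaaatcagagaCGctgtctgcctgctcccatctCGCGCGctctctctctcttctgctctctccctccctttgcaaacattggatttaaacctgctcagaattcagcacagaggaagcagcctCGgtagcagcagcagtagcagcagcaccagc
Ntm: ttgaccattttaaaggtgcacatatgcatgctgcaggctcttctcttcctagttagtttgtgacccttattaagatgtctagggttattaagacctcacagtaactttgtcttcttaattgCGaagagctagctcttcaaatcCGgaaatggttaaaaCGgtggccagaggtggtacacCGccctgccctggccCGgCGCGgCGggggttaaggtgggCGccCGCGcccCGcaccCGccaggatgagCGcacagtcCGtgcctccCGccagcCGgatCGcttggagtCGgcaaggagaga
Negr1: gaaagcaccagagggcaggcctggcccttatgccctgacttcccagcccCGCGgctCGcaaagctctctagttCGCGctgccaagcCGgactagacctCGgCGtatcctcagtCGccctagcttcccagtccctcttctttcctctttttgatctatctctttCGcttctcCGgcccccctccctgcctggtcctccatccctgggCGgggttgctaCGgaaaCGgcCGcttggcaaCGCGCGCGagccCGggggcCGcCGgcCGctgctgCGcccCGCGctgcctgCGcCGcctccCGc

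Negr1 had the start region richest in CpG of the 4, with 29 CpG, 68% G and C, and an observed to expected CpG ratio of 0.88. Ntm had 19 CpG (ratio 0.82), Lsamp 12 (ratio 0.59) and Opcml 9 (ratio 0.42). Of 32851 RefSeq start regions of the same length, 87.1% held fewer CpG than that of Negr1, 71.9% fewer than that of Ntm, 60.4% fewer than that of Lsamp and 54.2% fewer than that of Opcml. The median of all start regions was 7 CpG. RefSeq lists a further start inside Lsamp (chr16:41532576-41532875), with 3 CpG, and another for Ntm (chr9:29413403-29413702), with 2 CpG, and both starts of Ntm lie inside its GENCODE span. The letters TATAAA, searched on both strands, were absent from all 4 printed windows and present in 13.6% of all start regions. GGGCGG was found in the windows of Ntm and Negr1 and in 35.7% of all, and CCAAT in those of Lsamp and Opcml and in 37.4% of all. TGACGTCA was in none of the 4 and in 1.8% of all. Such a match describes letters only, and the counts do not say which start was used.

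Depth and purity set the precision of what follows. Sorted libraries held 134357 to 3239445 counts, presort libraries 147826 to 3274488 and the cytoplasm libraries 3885312 and 4461568. The median was 2485416.5 counts in sorted and 260451 in presort libraries. The 4 genes had between 5 counts (Opcml in sorted astrocyte replicate 30) and 4554 counts (Lsamp in sorted astrocyte replicate 32) in a library. Levels are given as normalised CPM, depth-scaled counts corrected with TMM (trimmed mean of M-values) factors over all 26 libraries. Sorted oligodendrocyte replicate 36 stood apart, with 7674 genes detected against at least 11136 in every other library. Sorted astrocyte replicate 30 was the shallowest, and 3 counts there equal 19.6 normalised CPM. The 12 astrocyte markers summed to 19747 to 32850 normalised CPM in sorted astrocyte libraries, against 466.9 to 2104 in the other sorted libraries. The 12 oligodendrocyte markers summed to at least 38814 in sorted oligodendrocyte libraries and to at most 2017 in the other sorted ones. The 12 neuron markers separated the groups less, with 6930 to 8855 in sorted neurons, 2132 to 3121 in sorted astrocytes and 971 to 3198 in sorted oligodendrocytes, and no marker of these lists was at 0 in any group.

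Lsamp was an astrocyte-high gene in these nuclei. Sorted astrocyte replicates 30, 32, 6 and 8 had 1198, 1713, 1492 and 1800.3 normalised CPM. Sorted neuron replicates 26, 28, 2 and 4 had 441, 653, 627 and 531, and sorted oligodendrocyte replicates 34, 36, 10 and 12 had 149, 63.9, 94.1 and 89.7. The 3 types did not overlap: every astrocyte library lay above every neuron library, and every neuron library above every oligodendrocyte library. The mean was 1551 ± 268 in astrocytes, 563 ± 96.7 in neurons and 99.1 ± 35.7 in oligodendrocytes (SD, n = 4 each), 15.7-fold higher in astrocytes than in oligodendrocytes. On the log2 scale astrocytes exceeded oligodendrocytes by 4.04 ± 0.35 and neurons fell below astrocytes with a log2 fold change of -1.49 ± 0.32 (SE). Without oligodendrocyte replicate 36 the former was 3.88, and without astrocyte replicate 30 the latter was -1.53. The summed RNA of 9 markers of oligodendrocyte precursors was also higher in sorted astrocyte libraries. It was 479 to 730.1 normalised CPM there and 60.5 to 199.8 in the other sorted libraries. The markers did not all go that way. Of 8 tested, 2 were called higher in astrocytes than in oligodendrocytes (9.62% of all genes) and 1 lower (7.48%). Against neurons 2 of 8 were called higher in astrocytes (11.4% of all genes) and 0 lower (8.02%). The part of precursor cells in the Lsamp level was not tested.

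Opcml had the reverse pattern in astrocytes and was lowest there. In sorted neurons it was at 401, 429.5, 259.8 and 306 normalised CPM (replicates 26, 28, 2 and 4). In sorted astrocytes it was at 32.7, 25.2, 17.3 and 36.6 (replicates 30, 32, 6 and 8), of which the first rests on 5 counts. In sorted oligodendrocytes it was at 164, 36.5, 119 and 78.1 (replicates 34, 36, 10 and 12). Neurons lay above all other sorted libraries, and the astrocyte and oligodendrocyte groups overlapped only through oligodendrocyte replicate 36. The neuron mean of 349 ± 79.6 was 12.5-fold the astrocyte mean of 28 ± 8.55 and 3.51-fold the oligodendrocyte mean of 99.4 ± 54.7 (SD, n = 4 each). The log2 fold change was 3.64 ± 0.51 for neurons against astrocytes, 1.85 ± 0.46 for neurons against oligodendrocytes and -1.79 ± 0.48 for astrocytes against oligodendrocytes (SE). Without replicate 36 the last was -2.10. Opcml was the only 1 of the 4 genes with a higher mean in oligodendrocytes than in astrocytes. The sorted oligodendrocyte libraries had sums of 506.9 to 1784.1 normalised CPM for 10 forebrain excitatory markers, against 497.6 to 684.2 in sorted astrocytes. These markers went both ways. Of 10 tested, 2 were called higher in astrocytes than in oligodendrocytes (9.62% of all genes) and 1 lower (7.48%). The 12 general neuron markers had a lower mean sum in oligodendrocytes (2048 against 2561). The part of neuronal RNA in this Opcml difference was not tested.

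Ntm, the genomic neighbour of Opcml, was high in neurons and in astrocytes. Its normalised CPM were 548, 616, 907 and 669 in sorted neurons, 340.5, 429, 507 and 519 in sorted astrocytes and 48.8, 34.2, 67.3 and 50.6 in sorted oligodendrocytes, in the order of replicates given above. The neuron and astrocyte groups came close, at 548 for the lowest neuron library and 519 for the highest astrocyte library, and the oligodendrocyte libraries were all far below. The neuron mean of 685 ± 156 was 1.53-fold the astrocyte mean of 449 ± 82.6 and 13.6-fold the oligodendrocyte mean of 50.3 ± 13.5 (SD, n = 4 each). The log2 fold change was 0.58 ± 0.32 for neurons against astrocytes, 3.81 ± 0.36 for neurons against oligodendrocytes and 3.23 ± 0.35 for astrocytes against oligodendrocytes (SE).

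Negr1 was a neuron-high gene with intermediate levels in astrocytes. Sorted neurons had 920.0, 989, 1072.5 and 773 normalised CPM, sorted astrocytes 196, 262, 411 and 249, and sorted oligodendrocytes 104, 51.4, 93.6 and 61, in the same order of replicates. The 3 groups did not overlap. The neuron mean of 938 ± 127 was 3.36-fold the astrocyte mean of 279.5 ± 91.9 and 12.1-fold the oligodendrocyte mean of 77.6 ± 25.4 (SD, n = 4 each). The log2 fold change was 1.71 ± 0.35 for neurons against astrocytes, 3.64 ± 0.37 for neurons against oligodendrocytes and 1.93 ± 0.35 for astrocytes against oligodendrocytes (SE). Markers of cerebellar granule cells, 10 genes, summed to 9361 to 24000 normalised CPM in sorted neurons and to at most 877 in the other sorted libraries. Sums of 10 forebrain excitatory markers overlapped among the types. They were 562.8 to 1536.6 in sorted neurons, 497.6 to 684.2 in sorted astrocytes and 506.9 to 1784.1 in sorted oligodendrocytes. Sums of 9 GABAergic markers were 325 to 412.3 in sorted neurons and at most 205.5 in the other sorted libraries. The part of granule cells in the neuron levels of Ntm and Negr1 was not tested.

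**Figure D1:**
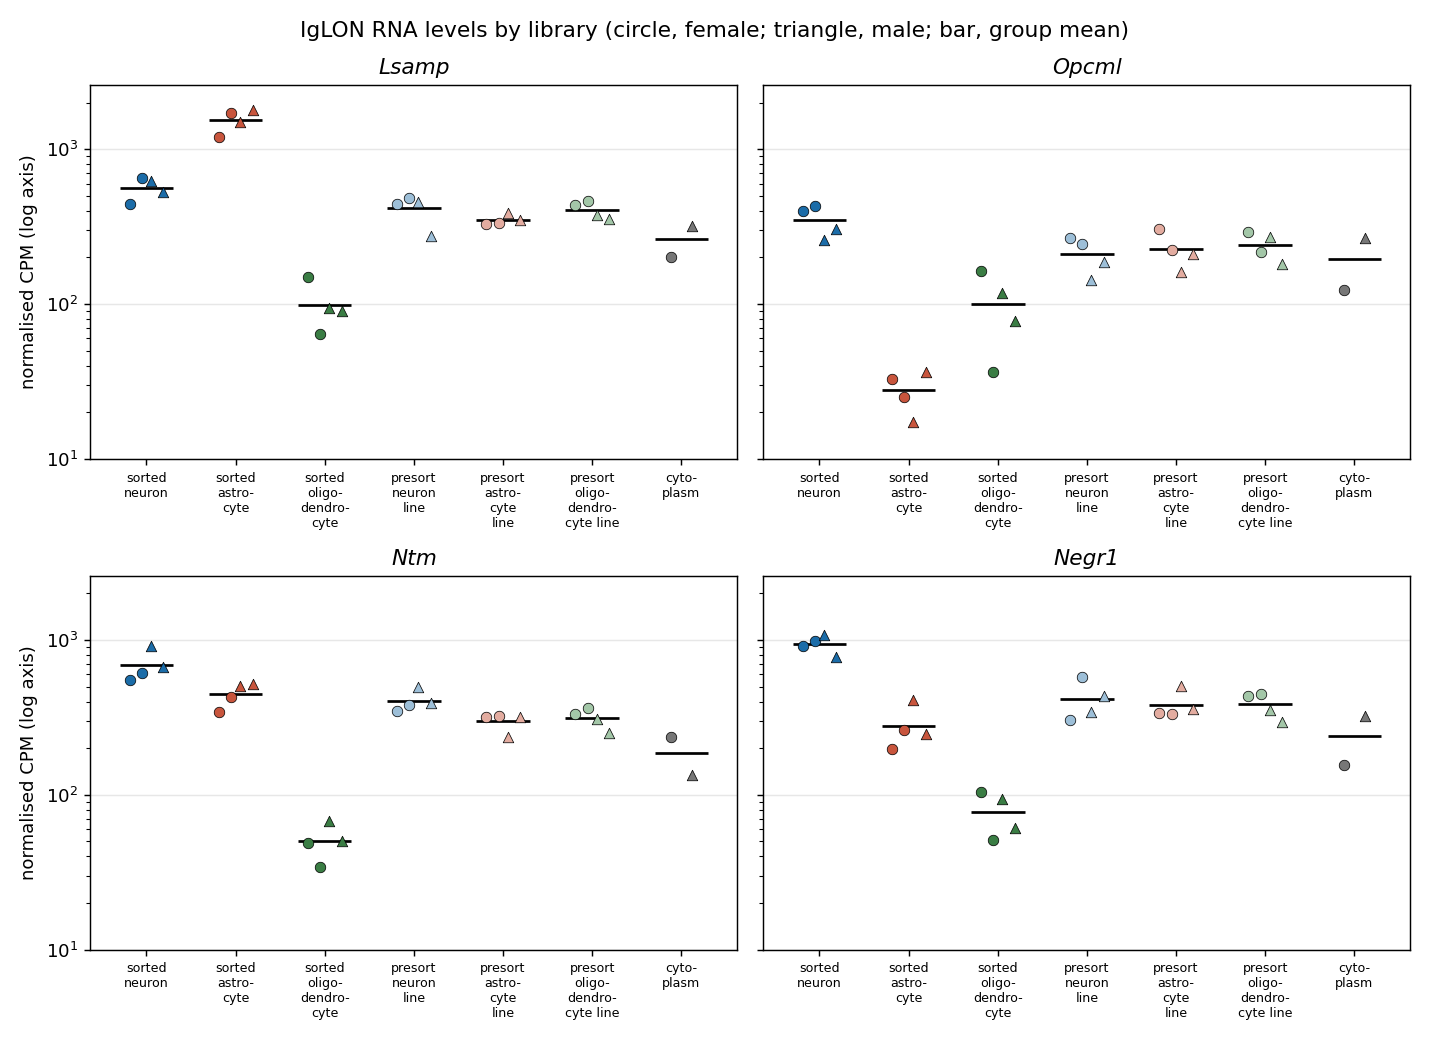
Normalised CPM (log axis) of Lsamp, Opcml, Ntm and Negr1 in each library of the 7 groups, with circles for females, triangles for males and a bar for the group mean. Lsamp is highest in sorted astrocytes (1551 CPM on average) where Opcml is lowest (28 CPM), and Lsamp, Ntm and Negr1 are lowest in sorted oligodendrocytes.

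Oligodendrocytes were the low type for 3 of the 4 genes. For Lsamp, Ntm and Negr1 every sorted oligodendrocyte library lay below every neuron and astrocyte library, a pattern that 4.18% of 13029 genes showed. All 4 genes were higher in neurons than in oligodendrocytes with no overlap (17.8% of genes). From astrocytes to oligodendrocytes 3 were higher with no overlap (13.2% of genes), and Opcml overlapped. Between neurons and astrocytes Opcml, Ntm and Negr1 were higher in neurons (17.5% of genes) and Lsamp was lower (16.5% of genes). The choice of the family used these libraries, so nothing is read from these shares. The median log2 fold change of the 4 genes was 1.14 for neurons against astrocytes, 3.09 for neurons against oligodendrocytes and 2.58 for astrocytes against oligodendrocytes, beside 0.05, 0.16 and 0.11 over all genes tested.

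The groups were next put in order, with presort nuclei of all lines as 1 group. Lsamp ran from sorted astrocytes (1551 normalised CPM) through sorted neurons (563), presort nuclei (390.4) and cytoplasm (261) to sorted oligodendrocytes (99.1), and only the first and the last step were between groups that did not overlap. Opcml ran from sorted neurons (349) through presort nuclei (225.5), cytoplasm (195) and sorted oligodendrocytes (99.4) to sorted astrocytes (28), and each neighbouring pair overlapped. Ntm ran from sorted neurons (685) through sorted astrocytes (449), presort nuclei (339) and cytoplasm (186) to sorted oligodendrocytes (50.3), with no overlap in the first and the last step. Negr1 ran from sorted neurons (938) through presort nuclei (393), sorted astrocytes (279.5) and cytoplasm (239) to sorted oligodendrocytes (77.6), again with no overlap in the first and the last step. The last place of sorted oligodendrocytes was thus shared by 3 genes, with means 2.64-fold (Lsamp), 3.69-fold (Ntm) and 3.09-fold (Negr1) below the group before. The first steps of Lsamp and Ntm were between sorted types, where 16.5% and 17.5% of genes had no overlap in the same direction. For steps with presort nuclei or cytoplasm no such share was computed. The cytoplasm group held only 2 libraries, and nothing is read from the steps without overlap.

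The make-up of the family differed among sorted types while its total was alike in neurons and astrocytes. The 4 genes together had 2536 ± 288 normalised CPM (SD, n = 4) in neurons, 2307 ± 369 in astrocytes and only 326 ± 121 in oligodendrocytes. In astrocytes Lsamp supplied 67.2% ± 3.98 of the counts of the 4 genes, Ntm 19.4% ± 1.36, Negr1 12.1% ± 3.29 and Opcml 1.25% ± 0.49. In neurons Negr1 supplied 37.0% ± 2.43, Ntm 26.9% ± 4.26, Lsamp 22.1% ± 2.26 and Opcml 14.0% ± 3.65. In oligodendrocytes the counts were spread more evenly, with 30.9% ± 3.97 from Lsamp, 28.6% ± 6.70 from Opcml, 24.2% ± 2.66 from Negr1 and 16.2% ± 3.86 from Ntm. A share within the family does not depend on the scaling of a library. The ratio of Lsamp to Opcml counts showed the contrast most plainly: its log2 value was 5.83 ± 0.54 in astrocytes, 0.70 ± 0.47 in neurons and 0.13 ± 0.50 in oligodendrocytes, and astrocyte libraries lay between 5.19 and 6.43 while no other sorted library exceeded 1.27. Neighbouring Opcml and Ntm were also unlike, with a log2 ratio of Opcml to Ntm of -4.04 ± 0.63 in astrocytes, -0.98 ± 0.63 in neurons and 0.82 ± 0.69 in oligodendrocytes.

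**Figure D2:**
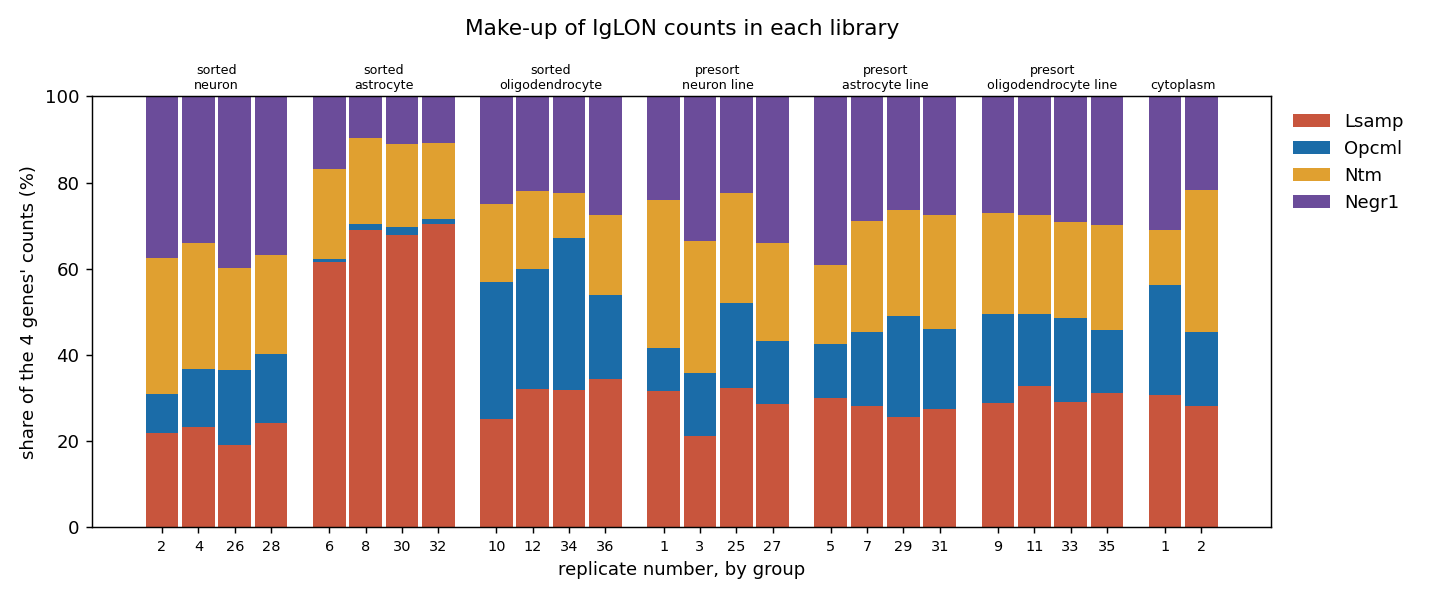
Share (%) of the summed counts of the 4 genes that each gene supplied, 1 stacked bar for each of the 26 libraries, by group and replicate number. Lsamp takes 61.5 to 70.5% in the 4 sorted astrocyte libraries and Opcml at most 1.85% there. In presort libraries Lsamp takes 21.31 to 32.85% and Opcml 9.96 to 23.5%.

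Levels of different genes can be set side by side only per length. Per kilobase of all annotated exons, sorted neurons had 89.3 CPM of Negr1, 84.8 of Ntm, 32.7 of Lsamp and 24.1 of Opcml. Sorted astrocytes had 90.1 of Lsamp, 55.6 of Ntm, 26.6 of Negr1 and 1.93 of Opcml. Sorted oligodendrocytes had between 5.76 (Lsamp) and 7.38 (Negr1) of each, a range smaller than the SD among libraries of any of the 4 genes (1.68 to 3.77). Presort nuclei had 41.9 of Ntm, 37.4 of Negr1, 22.7 of Lsamp and 15.5 of Opcml. With the longest transcript as the length, Ntm came before Negr1 in neurons and first in oligodendrocytes, and the order was the same as above in astrocytes, presort nuclei and cytoplasm.

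Sorted nuclei were then set against presort nuclei of the same line, again as a description. Most presort libraries were far shallower (medians above), so depth and sorting largely go together in these comparisons. The exceptions were in the astrocyte line, where presort replicate 29 held 3274488 counts and sorted replicate 30 held 134357. Lsamp was at 331 normalised CPM in the former and 1198 in the latter, and Opcml at 304 and 32.7. The part of depth in the differences was not tested. In the neuron line the log2 fold change, sorted minus presort, was 1.07 ± 0.23 for Negr1, 0.64 ± 0.22 for Ntm, 0.62 ± 0.26 for Opcml and 0.33 ± 0.23 for Lsamp (SE). Negr1 and Ntm were higher in every sorted neuron library than in every presort library of the line (8.6% of genes were), and the other two overlapped. In the astrocyte line Lsamp was higher by 1.98 ± 0.23 and Ntm by 0.42 ± 0.23, both with no overlap (13.3% of genes). Opcml was lower there, at -3.28 ± 0.33, with no overlap (12.1% of genes), and Negr1, at -0.60 ± 0.27, overlapped. In the oligodendrocyte line all 4 genes were lower in sorted nuclei with no overlap (10.9% of genes), at -2.77 ± 0.41 for Ntm, -2.43 ± 0.41 for Negr1, -2.17 ± 0.40 for Lsamp and -1.43 ± 0.48 for Opcml. Without replicate 36 these were -2.66, -2.32, -2.06 and -1.18. These comparisons share the sorted libraries with those above and are not independent of them.

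**Figure D3:**
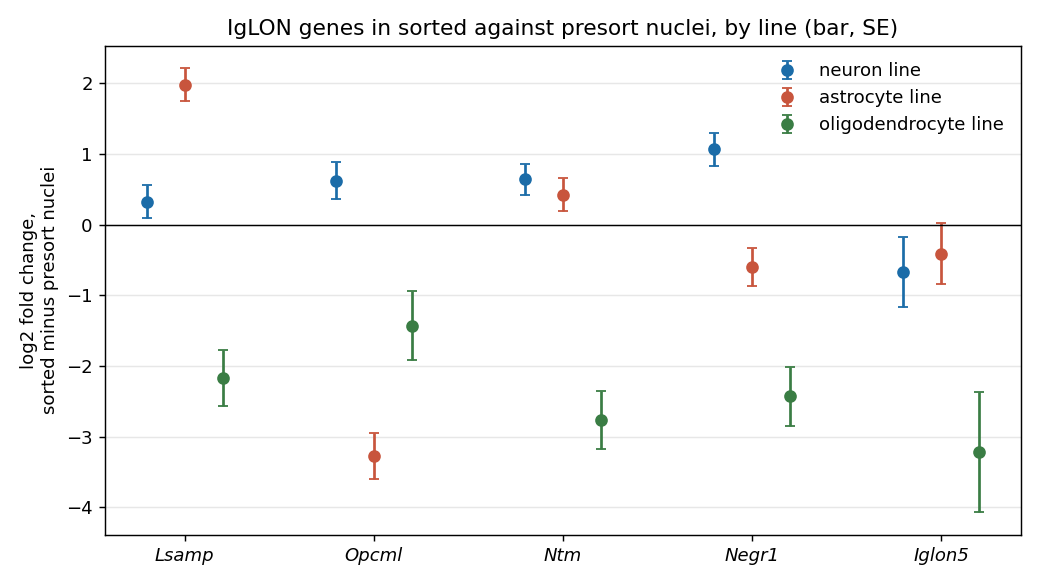
Log2 fold change of sorted minus presort nuclei (vertical axis) for the 4 genes and Iglon5 in each line, with bars for 1 SE from the fit over 4 sorted and 4 presort libraries. All 4 genes lie below 0 in the oligodendrocyte line, while the astrocyte line carries Lsamp up (1.98) and Opcml down (-3.28).

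In presort nuclei, the mixture of all cells, no difference among lines was detected for the 4 genes, with 4 mostly shallow libraries per line. Over 12 libraries Lsamp ran from 275 to 483 normalised CPM (median 381), Opcml from 143 to 304 (median 221), Ntm from 235 to 494 (median 326) and Negr1 from 296 to 573 (median 356). The coefficient of variation was 16.7% for Lsamp, 23.1% for Opcml, 20.0% for Ntm and 21.6% for Negr1, where counting alone gave 9.19%, 11.7%, 9.69% and 9.21%. Means in the neuron, astrocyte and oligodendrocyte lines were 414, 349 and 408 for Lsamp, 211, 225 and 241 for Opcml, 404, 299 and 313 for Ntm and 414, 383 and 383 for Negr1. A joint test of the 3 lines in edgeR, whose quasi-likelihood test is used throughout with Benjamini-Hochberg adjustment, called 0 of 6049 genes (0.0%), 201 at an unadjusted p under 0.05, and DESeq2 called 4. The unadjusted p was 0.104 for Ntm, 0.51 for Lsamp, 0.694 for Opcml and 0.891 for Negr1, and each adjusted p was 1. In such a mixture fewer cells of a type and less RNA per cell cannot be told apart.

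Presort nuclei were compared with cytoplasm to ask whether family RNA was enriched in the nucleus. This fit used none of the sorted libraries whose differences were known when the genes were chosen. The cytoplasm libraries (replicates 1 and 2) had 321 and 202 normalised CPM of Lsamp, 266 and 123 of Opcml, 134 and 238 of Ntm and 323 and 155 of Negr1. The 2 libraries differed from each other, with Ntm higher in replicate 2 and the other genes higher in replicate 1, and for every gene at least 1 of them lay within the range of the presort libraries. The log2 fold change, presort minus cytoplasm, was 0.69 ± 0.30 for Ntm (SE, edgeR adjusted p = 0.0577), 0.57 ± 0.30 for Negr1 (adjusted p = 0.126), 0.42 ± 0.27 for Lsamp (adjusted p = 0.193) and 0.06 ± 0.30 for Opcml (adjusted p = 0.877). None of the 4 genes passed, in a comparison where 50.3% of 7728 genes did (20.1% higher and 30.2% lower in presort nuclei). The median of the 4 genes was 0.49, beside -0.12 over all genes tested.

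That outcome turned on the scaling and on single libraries. With plain library totals, which moved the median of all genes to 0.47, Ntm (1.25, adjusted p = 0.0027), Lsamp (1.03, adjusted p = 0.00295) and Negr1 (1.19, adjusted p = 0.0031) were higher in presort nuclei in edgeR, and Opcml (0.69) was not called. Relative to that median the 4 differences were much as before. DESeq2 called Ntm (0.67, adjusted p = 0.025). Without cytoplasm replicate 2 Ntm passed in edgeR (1.24, adjusted p = 0.00616), and without cytoplasm replicate 1 Lsamp (0.82, adjusted p = 0.0435) and Negr1 (1.21, adjusted p = 0.00987) did. Ntm also passed without presort astrocyte replicate 5 (adjusted p = 0.0366), presort astrocyte replicate 7 (adjusted p = 0.0446) or presort neuron replicate 27 (adjusted p = 0.0473). Opcml took the other sign without cytoplasm replicate 2 (-0.34). The fractions also differed in cell type markers: neuron markers summed to 10059.6 and 26525 normalised CPM in cytoplasm and to 3297 to 5498 in presort nuclei, and granule cell markers to 1381 and 2059.9 against 4163 to 11923. The part of these differences in the values of the 4 genes was not tested.

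The make-up of the family did not differ detectably between the fractions. Lsamp supplied 29.4% of the family's counts in cytoplasm and 28.9% in presort nuclei, Opcml 21.3% and 16.8%, Ntm 22.9% and 25.1% and Negr1 26.3% and 29.1% (means of 2 and 12 libraries). In an exact two-sided permutation test over all 91 splits the p was 0.846 for Lsamp, 0.209 for Opcml, 0.582 for Ntm and 0.462 for Negr1. Adjusted over the 4 genes these were 0.777 to 0.846, and the smallest p the design allows is 0.011. The Ntm share was 12.8% in cytoplasm replicate 1 and 33.1% in replicate 2, so the spread between the 2 libraries exceeded the difference between fractions.

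Sex was balanced within each group of nuclei and made no detectable difference to the 4 genes. In sorted nuclei the log2 fold change, male minus female with cell type as a covariate, was 0.43 ± 0.25 for Ntm (SE, edgeR adjusted p = 0.868), 0.14 ± 0.28 for Negr1, 0.01 ± 0.26 for Lsamp and -0.23 ± 0.38 for Opcml (adjusted p from 0.906 to 0.996). In presort nuclei, with line as a covariate, it was -0.34 ± 0.18 for Opcml (adjusted p = 0.491), -0.06 ± 0.17 for Lsamp, 0.03 ± 0.17 for Ntm and 0.02 ± 0.20 for Negr1 (adjusted p from 0.923 to 0.977). Of all genes, 0.0424% passed in sorted and 0.711% in presort nuclei. The interaction of sex and cell type was called by edgeR for 0 of 14164 genes (0.0%), 331 at an unadjusted p under 0.05, and for 0 by DESeq2, and each of the 4 genes had an adjusted p of 1. Leaving out any 1 sorted library left 1 library of a sex in that type, so interaction calls on such omissions are not read. Without sorted oligodendrocyte replicate 34, replicate 36 was the only female oligodendrocyte library.

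Iglon5 is not 1 of the 4 genes and was tested. It was taken up for comparison with earlier results of these data known, so its p values give no independent support. It had 26.6 ± 13.5 normalised CPM in sorted neurons, 29.5 ± 14.5 in sorted astrocytes and 4.96 ± 3.91 in sorted oligodendrocytes (SD, n = 4 each), with 0 counts in oligodendrocyte replicate 36. Neurons and astrocytes overlapped, and every oligodendrocyte library lay below them (4.18% of genes). Per kilobase of exon it had 10.2 CPM in neurons, below each of the 4 genes, but 11.2 in astrocytes, where Opcml had 1.93. In presort nuclei it had 14.9, where Opcml had 15.5. Exons cover 15.3% of Iglon5 and at most 1.39% of each of the 4 genes. Whether intronic reads were counted is not given, which limits this comparison. Iglon5 had as few as 4 counts in a sorted astrocyte library and 2 in a presort library. Its log2 fold change was 2.37 ± 0.71 for neurons against oligodendrocytes (SE, edgeR adjusted p = 0.0221) and 2.56 ± 0.72 for astrocytes against oligodendrocytes (adjusted p = 0.0201). Calls in these directions were made for 10.7% and 9.62% of all genes. The first call was lost without sorted neuron replicate 2 (adjusted p = 0.0673) or sorted oligodendrocyte replicate 12 (adjusted p = 0.0557), and the second without sorted astrocyte replicate 32 (adjusted p = 0.0944). Between neurons and astrocytes it was -0.19 ± 0.67 (adjusted p = 0.91). In the oligodendrocyte line sorted nuclei were lower than presort nuclei (-3.22 ± 0.85, edgeR adjusted p = 0.0387), a call made for 3.24% of all genes. This call was lost when any 1 library other than replicate 36 was left out (adjusted p from 0.0607 to 0.166). It was also lost with plain library totals (adjusted p = 0.0502). In females alone none of these 3 calls was made (adjusted p from 0.523 to 0.778), and in males alone astrocytes against oligodendrocytes missed the threshold (adjusted p = 0.0529). Cytoplasm had 40.6 and 78.9 normalised CPM and presort nuclei 39.1 ± 21.4 (SD, n = 12), a log2 fold change of -0.79 ± 0.47 (SE, edgeR adjusted p = 0.163). Like Lsamp, Ntm and Negr1, Iglon5 was lowest in sorted oligodendrocytes.

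Other immunoglobulin adhesion genes were followed in a list of 40, Iglon5 included, of which 38 were tested in sorted nuclei. The list was drawn up with earlier results of these data known. Its counts and p values, here and below, therefore describe the list and give no independent support. More of the listed genes were higher than lower in neurons. Against astrocytes 13 were higher (8.02% of all genes) and 3 lower (11.4% of all genes), with a median log2 fold change of 0.23 beside 0.05 over all genes. The contactins Cntn6 (5.28 ± 0.73, SE, edgeR adjusted p = 9.2e-05) and Cntn5 (5.12 ± 0.95, adjusted p = 0.000982), axonal adhesion molecules with the same type of membrane anchor as IgLON proteins, and Cadm3, a synaptic adhesion gene (4.48 ± 0.73, adjusted p = 0.00037), rose most. Lower in neurons were Hepacam, a glial adhesion gene (-6.54 ± 0.51), Igsf11 (-3.31 ± 0.45) and Mdga2 (-1.40 ± 0.38, adjusted p = 0.0149). Mdga2 no longer passed without sorted astrocyte replicate 32 or 6 or sorted neuron replicate 28 or 2 (adjusted p of up to 0.0682). Lsamp, with -1.49, thus had a log2 fold change close to that of Mdga2.

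Against oligodendrocytes 15 of the 38 were higher in neurons (10.7% of all genes) and 8 lower (12.4%), with a median of 0.91 beside 0.16. Cntn6 (5.04 ± 0.68), Cadm3 (4.40 ± 0.72) and Cntn5 (4.27 ± 0.86) rose again, and the myelin genes Mag (-7.75 ± 0.48) and Mog (-6.61 ± 0.50) and Hepacam (-5.55 ± 0.49) were lower. From astrocytes to oligodendrocytes 9 were higher (9.62% of all genes) and 6 lower (7.48%), with a median of 0.07 beside 0.11. Nrcam, an adhesion gene of axons and nodes (3.44 ± 0.44, edgeR adjusted p = 4.14e-05), Iglon5 and Chl1 (2.45 ± 0.58, adjusted p = 0.00649) were higher, and Mog, Mag and the contactin Cntn2 (-6.12 ± 0.49) were lower. The log2 fold changes of Lsamp (4.04) and Ntm (3.23) stood beside that of Nrcam, which had 863 normalised CPM in astrocytes and 83.7 in oligodendrocytes. These 3 comparisons share libraries. Without oligodendrocyte replicate 36 the counts were 16 higher and 8 lower, 19 and 9, and 14 and 10. For astrocytes against oligodendrocytes the count of 9 higher and 6 lower became 3 and 5 without sorted astrocyte replicate 32, and 5 and 6 without sorted astrocyte replicate 8 or sorted oligodendrocyte replicate 10. In females alone the counts were 0 and 1, 0 and 4, and 0 and 3.

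Against presort nuclei, the list moved in both directions in each line. In the neuron line 2 of 38 were higher (1.27% of all genes), Nptn (0.89 ± 0.21, edgeR adjusted p = 0.0181) and Cadm2 (0.87 ± 0.23, adjusted p = 0.0322), and 5 were lower (5.1%), led by Mag (-4.12 ± 0.40). Nptn was lost without sorted neuron replicate 28 (adjusted p = 0.0671), and Cadm2 without sorted neuron replicate 26, 28 or 4 or presort neuron replicate 25 or 27 (adjusted p of up to 0.134). Both were also lost in males alone and in a joint fit of all 24 nuclear libraries, and Cadm2 with plain library totals. The count of 2 higher and 5 lower became 0 and 4 without sorted neuron replicate 28, 6 and 8 without sorted neuron replicate 2, 0 and 3 in males alone and 7 and 4 in females alone. In the astrocyte line 7 were higher (13.7% of all genes), led by Hepacam (3.27 ± 0.31), Igsf11 (2.14 ± 0.32) and Nectin3 (1.43 ± 0.37), and 16 lower (15.4%), led by Cntn5 (-4.66 ± 0.60), Cntn6 (-4.59 ± 0.46) and Cntn2 (-3.67 ± 0.29). Without presort astrocyte replicate 29 these were 8 and 10, of 28 tested. In the oligodendrocyte line 6 of 37 were higher (5.12% of all genes), led by Mag (3.90 ± 0.45), Mog (3.90 ± 0.50) and Dscaml1 (2.74 ± 0.50), and 10 lower (3.24%), led by Cntn6 (-4.13 ± 0.67), Cadm3 (-3.65 ± 0.83) and Cntn4 (-3.62 ± 0.85). Cadm3 and Cntn4 lost their calls there without any 1 of the presort libraries or without sorted replicate 12 (adjusted p of up to 0.088), and Cntn4 also without sorted replicate 10. The count of 6 higher and 10 lower rested on single libraries too: 1 to 3 were lower without any 1 of the presort libraries, 2 without sorted replicate 12 and 4 without sorted replicate 10, with 5 or 6 higher in each case. Without replicate 36 it was 10 and 13, and in females alone 0 and 0. Against cytoplasm 10 of 35 were higher in presort nuclei (20.1% of all genes) and 0 lower, with a median of 0.48 beside -0.12 and Cntn6 (3.38 ± 0.58, adjusted p = 6.66e-05), Cntn5 (2.72 ± 0.78, adjusted p = 0.00667) and Igsf9b (2.54 ± 0.44, adjusted p = 6.75e-05) at the top. That median lay next to the 0.49 of the 4 IgLON genes, and without cytoplasm replicate 2 the count was 19 higher and 0 lower.

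**Figure D4:**
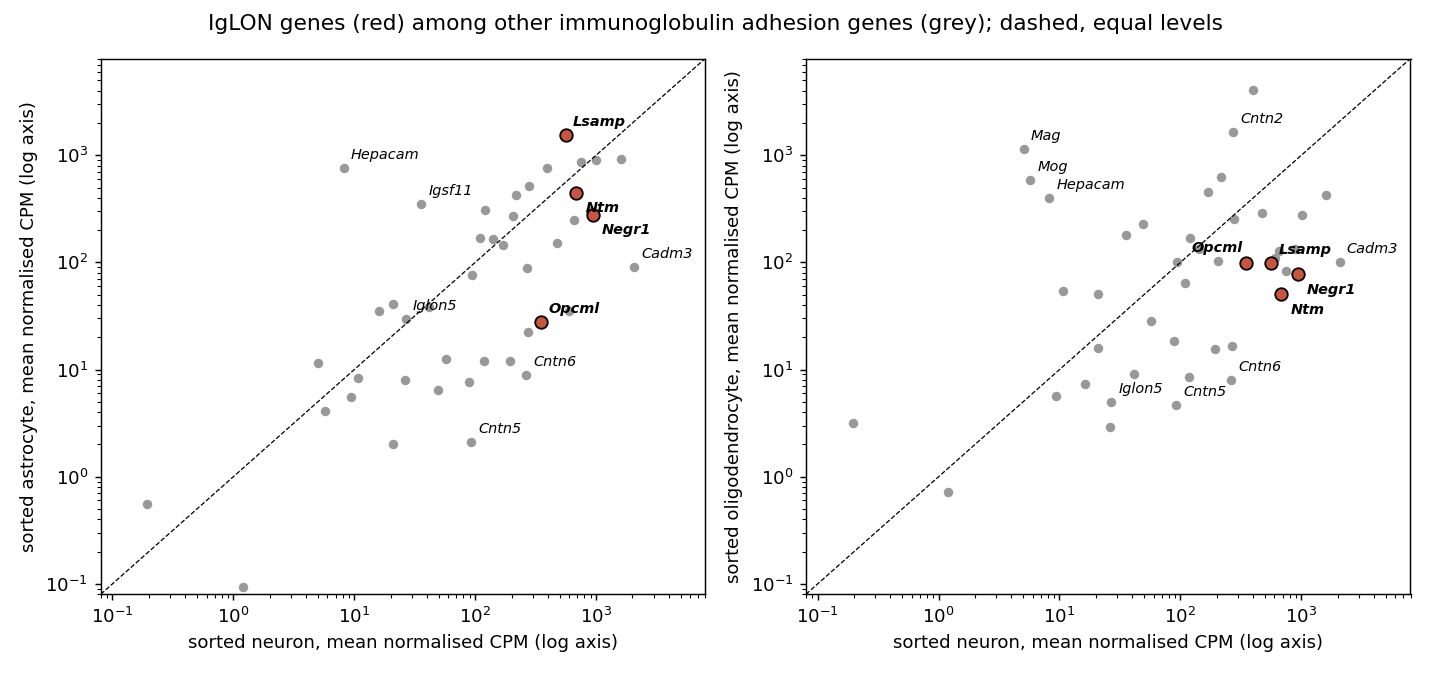
Mean normalised CPM in sorted neurons (horizontal, log axis) against sorted astrocytes (left panel) or sorted oligodendrocytes (right panel, vertical log axis), for the 4 genes in red and other immunoglobulin adhesion genes in grey, with equal levels dashed. Lsamp lies above the line on the left and Opcml below it, and all 4 lie below it on the right, while Mag, Mog and Hepacam lie above.

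The genes most like each of the 4 were sought by Pearson correlation of log2 CPM over the 12 sorted libraries among 10788 genes. These values describe libraries that share a cell type and its depth, and have no test. Lsamp was followed most closely by Amigo2, an adhesion protein gene with leucine-rich repeats (r = 0.976), Slc22a4, an organic cation transporter gene (0.972), and Scg3, the secretogranin 3 gene (0.971). Opcml was followed by Adam22, a receptor for secreted Lgi proteins at synapses (0.970), the kainate receptor subunit gene Grik2 (0.963) and Gcnt1, a glycosyltransferase gene (0.955). For Ntm the closest were the immunoglobulin adhesion gene Cadm2 (0.983), Rgs7, a regulator of G protein signalling (0.970), and Syne1, a nuclear envelope protein gene (0.966). Negr1 was followed by Cnpy1 (0.988), the potassium channel gene Kcnj3 (0.981) and the neurotrophin gene Bdnf (0.972). Scg3 had 121, 447 and 32.4 normalised CPM in neurons, astrocytes and oligodendrocytes, the order of Lsamp, and Cadm2 had 1004, 905 and 274.5, the order of Ntm. The lists were not stable: without sorted oligodendrocyte replicate 36, 0 of the 3 genes named for Lsamp and for Opcml, 1 for Ntm and 2 for Negr1 were still among the closest 3.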

How the data were processed

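RNA was counted per gene in 26 mouse brain libraries. The authors deposited 1 table of raw counts, whole numbers per gene and library with no normalization, for 27501 Ensembl identifiers and an entry named GFP. The submitters' processing notes name Trimmomatic, Bowtie2, STAR, bedtools and edgeR. Not given in the sources used here: the genome build, the annotation, the strand setting and the regions in which reads were counted. RNA was amplified with NuGEN Ovation RNA-seq V2 after Trizol, DNase and MinElute steps, per the labels' protocols. Molecular identifiers were not part of that kit as described, and a count is a read.

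Symbols were taken from a table of gene names, which held 26495 of the identifiers and lacked 1006. Positions and lengths came from GENCODE M21 (GRCm38) and start regions from RefSeq. Groups and replicate numbers came from the sample titles. The main test was edgeR's quasi-likelihood F test (version 4.0.16 in R 4.3.3), two-sided, with TMM factors, filterByExpr (minimum count 10) and Benjamini-Hochberg adjustment over all genes tested, at 0.05. The 12 sorted libraries were fitted together, each line in 8 libraries, and presort against cytoplasm in 14. Standard errors came from the fold change and the F statistic. The edgeR fits were tested on simulated counts with planted changes. The levels, shares, overlaps and permutation test had no such test. The alternatives were RLE size factors, no filter, DESeq2 1.42.0, omission of each library, each sex alone, a joint fit and covariates. Plain totals and a cytoplasm comparison within the astrocyte and oligodendrocyte lines were added after seeing the data.

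The members, marker lists and adhesion list were chosen with earlier results of these data known. Named genes were the 4 members and Iglon5, for each member the 3 genes of highest Pearson correlation (log2 CPM, prior count 2) among tested, named genes with a mean of at least 10 CPM in 1 sorted type, and up to 3 adhesion genes of largest fold change in each direction among those that passed. Groups were called not overlapping when every library of 1 lay above every library of the other. Sorted contrasts of the members have no test.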

Additional observations from a re-analysis of the deposited data

Results flagged for a closer look

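Between lines, 4 pairs of sorted minus presort differences went in opposite directions in every library, and the difference itself was not tested. Lsamp had a log2 fold change of 1.98 in the astrocyte line and -2.17 in the oligodendrocyte line. Ntm had 0.64 in the neuron line and 0.42 in the astrocyte line, against -2.77 in the oligodendrocyte line. Negr1 had 1.07 in the neuron line and -2.43 in the oligodendrocyte line. These are the sorted libraries from which the family was known, and the 4 pairs share them. With no overlap, 8.6% of genes were higher in the neuron line and 13.3% in the astrocyte line. In the oligodendrocyte line 10.9% were lower with no overlap. The share of genes with such an opposite pair was not computed, so nothing is read from the number of pairs.

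In presort nuclei of the astrocyte line, replicate 5 stood apart from the other 3 libraries for Ntm, at 235 normalised CPM, the lowest, with a gap to the next of 0.978 of the whole range. The same library was the highest for Negr1, at 503 normalised CPM, with a gap of 0.853 of the range. It was the shallowest presort library, at 147826 counts, and held 44 counts of Ntm and 94 of Negr1. In all, 24 groups were examined in this way, of which chance would mark about 1 in 20.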

How the results depend on the processing

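No paired analysis was possible because the groups compared share fewer than 2 replicate numbers and the labels tie no presort library to a sorted one. The sorted differences of the 4 genes kept their direction under every alternative run. Limits are the depth of the presort libraries (30 to 1232 counts per gene), oligodendrocyte replicate 36 and the 2 cytoplasm libraries.

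Counts of genes called moved by over 1.5 times as follows, and the cause was not tested. Females alone gave 46 for neurons against astrocytes (2534 with all libraries), 123 for neurons against oligodendrocytes (3005) and 67 for astrocytes against oligodendrocytes (2229). The neuron line gave 1151 with no filter and 127 in males alone (702). The astrocyte line gave 1533 in males alone and 2133 in the 24-library fit (3205). The oligodendrocyte line gave 1216 with no filter, 1520 by DESeq2, 2152 in males alone, 0 in females alone and 3066 in the 24-library fit (795). Presort against cytoplasm gave 6815 with no filter (3891). Sex gave 30 with no filter and 59 by DESeq2 in sorted (6), and 129 and 128 in presort nuclei (51). Lines gave 1 and 4 (0), and sex by type 86 with no filter (0). The share called higher was 46.4% for neurons against oligodendrocytes, 56.9% by DESeq2 and 58.8% with plain totals. It was 47.0% and 35.3% with plain totals in the astrocyte line, 61.3%, 38.3% by DESeq2 and 48.1% with plain totals in the oligodendrocyte line, and 40.0% and 63.8% with plain totals against cytoplasm.

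Omitting each library in turn gave 1889 to 5096, 2324 to 4812 and 1705 to 3566 calls among sorted types (the highest without oligodendrocyte replicate 36), 342 to 1051 in the neuron line (lowest without sorted neuron replicate 26), 1833 to 3670 in the astrocyte line (lowest without presort replicate 29), 267 to 2069 in the oligodendrocyte line (lowest without presort replicate 33, highest without replicate 36), 3693 to 4539 against cytoplasm, 5 to 51 (highest without replicate 36) and 15 to 48 (lowest without presort oligodendrocyte replicate 33) for sex in sorted and presort nuclei, 0 to 0 for lines and 0 to 6546 for sex by type (highest without sorted oligodendrocyte replicate 34). For sex by type every omission left 1 library of a sex in 1 type, so that range is not read. Without replicate 34 the library left was replicate 36. Cytoplasm minus presort shares ranged from -0.83 to 1.8 points for Lsamp, 0.36 to 8.64 for Opcml, -12.33 to 7.96 for Ntm and -7.49 to 1.89 for Negr1.

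Per kilobase of exon, shares became 14.1%, 51.8% and 22.2% for Lsamp in neurons, astrocytes and oligodendrocytes, 36.5%, 31.9% and 24.8% for Ntm, and 28.5% for Negr1 in oligodendrocytes. The following signs turned, none of them in a called difference. Opcml, presort minus cytoplasm, gave -0.10 with no filter and -0.34 to 0.75 on omission of single libraries. Male minus female in sorted nuclei gave -0.049 by RLE and -0.050 by DESeq2 for Lsamp, and on omission -0.076 to 0.21 for Lsamp, -0.028 to 0.30 for Negr1 and -0.43 to 0.057 for Opcml. In presort nuclei it gave -0.033 for Negr1 and -0.024 for Ntm with no filter, and on omission -0.099 to 0.16 for Negr1, -0.064 to 0.094 for Ntm and -0.14 to 0.039 for Lsamp. Iglon5 gave 0.65 for neurons minus astrocytes in males alone (-0.51 to 0.26 on omission) and 0.20 for the neuron line in females alone.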
